A study of Mus musculus with 40 samples.

Results

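The genes described here code for 3 families of conjugation enzymes, the UDP-glucuronosyltransferases (UGT), the glutathione S-transferases (GST) and the cytosolic sulfotransferases (SULT), measured by RNA sequencing of mouse kidney and aorta. Members were the protein-coding genes of each count table whose symbols begin with Ugt and a digit, Gst and a letter, or Sult and a digit, and whose mean level over the 20 libraries of the tissue was at least 0.5 CPM, the count of a gene scaled to the size of its library. In kidney 35 of 66 such genes were members, 13 of 22 UGT, 17 of 23 GST and 5 of 21 SULT genes. In aorta 19 of 66 were members, 2 UGT, 16 GST and 1 SULT gene, and each of them was also a member in kidney. The study asked what the EGF receptor of endothelial cells contributes to the response of vessels and kidney to a high fat diet. Mice of the genotypes EC-EGFR-WT and EC-EGFR-KO, both C57BL/6, received a standard fat diet (SFD, called SD in the labels, 10% of energy from fat) or a high fat diet (HFD, 60%) for 18 weeks from 6 weeks of age, with 5 mice in each of the 4 groups of a tissue and 40 libraries in all. KO mice carried Egfr flox/flox and Tek-cre, which is driven by the Tie2 promoter, is not inducible and also acts in blood cell lineages. WT mice carried the same Cre without loxP sites, so that Cre was common to all groups, and the sex of the mice was not given in the sources used here.

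Conjugation makes lipophilic compounds water soluble for export in urine or bile. UGT enzymes sit in the membrane of the endoplasmic reticulum and transfer a sugar, in most cases glucuronic acid from UDP-glucuronic acid, to steroids, bilirubin, phenols and drugs. GST enzymes couple electrophiles to glutathione and are grouped into classes (alpha, mu, pi, theta, omega, zeta, kappa), and SULT enzymes transfer sulfate from the donor PAPS to phenols, catecholamines and steroids. The liver is the main site of these reactions in the body, and in the kidney the proximal tubule is a major site. Several of these genes lie in clusters of neighbouring copies, and the Ugt1a genes each have a first exon of their own and share the remaining exons.

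For CPM, the library size was taken after TMM normalization, which was done for each tissue on its own. Members nearest to the limit of 0.5 CPM were Ugt1a2 at 0.56 CPM in kidney and Ugt1a7c at 0.751 CPM in aorta, and the nearest genes outside it were Gstp3 at 0.418 CPM and Gsto2 at 0.325 CPM. Ugt1a2 reached the limit only through the HFD groups, with means of 0.194 (WT) and 0.256 (KO) CPM under SFD and 1.08 and 0.713 CPM under HFD, so the rule itself favours a higher level of Ugt1a2 under HFD. Ugt1a10 lay under the limit in WT SFD (0.445 CPM) and above it in KO SFD (0.635 CPM, with 1.62 CPM in replicate a6). Its HFD means were 7.17 CPM in WT and 4.57 CPM in KO, so in WT the rule favours a higher Ugt1a10 likewise. Of the 66 matching genes, 14 in kidney and 29 in aorta had no count in any library. These include Gsta1, Gsta2 and Gsta4 on chromosome 9 and Sult5a1 on chromosome 8, which lie in a stretch of the genome where the tables hold 0 for every gene, so that nothing can be said of these 4. All members passed the expression filter of the test in their tissue. Within a group, the coefficient of variation of a member had a median of 15.8% in kidney (range 7.93% to 60.5%) and 23.4% in aorta (11.4% to 64.1%).

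Total counts ranged from 19643033 to 48833447 in kidney and from 17520161 to 36452741 in aorta. The deepest libraries of kidney, a12 (WT HFD) and a1 (KO HFD), agreed within sampling noise. Their median chi-square over genes was 0.0226, where sampling alone gives 0.455. In aorta the same held for R-12 (KO SFD) and R-1 (WT SFD), with 0.0239. The next closest pairs had 1.85 and 1.83. Both pairs were thus far closer than independent sampling gives, so each may be a single library under 2 labels, and the groups that hold them may not be 5 separate mice. Since each pair carries labels of both genotypes, it could not be merged. For the comparisons that use its groups, the counts of called members are also given without the pair. Family sums, intervals and most single values include the pair. The deletion takes out exon 1 of Egfr in endothelial cells, so the Egfr count of whole tissue is no full check of it. The study itself checked the deletion by genomic PCR on lung or aortic DNA and by qRT-PCR of Egfr in lung. Here the Egfr count did not separate the genotypes. Its median in kidney was 54.2 CPM for WT and 55.2 for KO under SFD, 45.5 for WT and 38.5 for KO under HFD, and the ranges of WT and KO overlapped under either diet in both tissues. Kidney libraries carried tubule markers (summed level of 7 proximal tubule genes 20608 to 53553 CPM), and aorta libraries carried smooth muscle markers (24903 to 40220 CPM, with Tagln and Cnn1 in the stretch held at 0). In bulk tissue, fewer cells of a type and less RNA per cell cannot be told apart.

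The sequences below are shown because the diet results turn on neighbours in these 2 clusters that share descent but not response. They are the 150 bases before the start of the gene in RefSeq on GRCm38.p6, written 5′ to 3′ on the strand of the gene. In the Ugt1a cluster, Ugt1a10 and Ugt1a2 were higher under HFD in WT. Ugt1a7c, the Ugt1a gene to which most counts were assigned in kidney, was not called, and the split of counts among these genes is uncertain. All letters are lower case, since none of the motifs listed after them lies in these stretches.
Ugt1a10 (chr1:88055261-88055410, plus strand): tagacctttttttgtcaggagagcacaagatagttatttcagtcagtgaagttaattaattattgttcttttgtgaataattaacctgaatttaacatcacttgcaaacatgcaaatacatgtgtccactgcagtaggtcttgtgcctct
Ugt1a7c (chr1:88094851-88095000, plus strand): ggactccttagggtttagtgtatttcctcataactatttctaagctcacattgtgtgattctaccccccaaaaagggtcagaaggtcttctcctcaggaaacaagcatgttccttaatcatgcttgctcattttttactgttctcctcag
Ugt1a2 (chr1:88200461-88200610, plus strand): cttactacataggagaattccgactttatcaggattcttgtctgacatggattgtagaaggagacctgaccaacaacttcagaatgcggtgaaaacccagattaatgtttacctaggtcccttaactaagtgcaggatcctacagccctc
Motifs were searched on both strands of the 43 windows of members and of 32851 RefSeq promoter windows of the same length (300 bases). They were CAAAGTCCA for HNF4 (0.475% of all windows, 1 of the 43), TGACNNNGC for the antioxidant response element (12.4% and 3), GCGTG for the AHR core (32.4% and 10), CACGTG for the E-box (7.15% and 0) and TATAAA (13.6% and 5). RefSeq windows were matched for 32 of the 35 kidney members, all but Gstt2, Ugt1a6b and Ugt3a2. A match describes letters and not a bound site, and no match says only that these letters are not in the window.

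In the Ugt2b cluster, Ugt2b38 was lower and Ugt2b34 higher under HFD, and Ugt2b37 and Ugt2b5 were not called. Capitals mark the run of 62 bases that Ugt2b5, Ugt2b37 and Ugt2b38 have in common.
Ugt2b34 (chr5:86906938-86907087, minus strand): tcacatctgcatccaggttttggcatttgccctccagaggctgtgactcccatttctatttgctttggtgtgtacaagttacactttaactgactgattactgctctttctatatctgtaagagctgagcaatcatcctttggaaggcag
Ugt2b5 (chr5:87140341-87140490, minus strand): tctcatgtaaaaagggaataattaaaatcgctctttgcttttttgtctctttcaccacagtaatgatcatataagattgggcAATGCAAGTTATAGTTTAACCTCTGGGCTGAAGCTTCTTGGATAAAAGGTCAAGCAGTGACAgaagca
Ugt2b37 (chr5:87254789-87254938, minus strand): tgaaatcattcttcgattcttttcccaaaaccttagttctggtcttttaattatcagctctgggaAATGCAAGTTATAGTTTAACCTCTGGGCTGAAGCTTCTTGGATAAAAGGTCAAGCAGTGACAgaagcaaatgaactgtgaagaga
Ugt2b38 (chr5:87424204-87424353, minus strand): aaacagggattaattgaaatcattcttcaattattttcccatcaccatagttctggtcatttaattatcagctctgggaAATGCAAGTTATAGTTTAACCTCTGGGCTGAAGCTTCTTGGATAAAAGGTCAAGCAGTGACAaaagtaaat
The common run covers positions -71 to -10 before the start of Ugt2b38, -85 to -24 of Ugt2b37 and -68 to -7 of Ugt2b5. Aligned on that run without gaps, the Ugt2b37 window had 94.1% identity with that of Ugt2b38 over 236 bases, and the Ugt2b5 window 48.2% over 247 bases. The longest stretch common to Ugt2b38 and Ugt2b37 was 82 bases. Ugt2b38, which fell under HFD, and Ugt2b37, which was not called, thus had nearly the same sequence in front of their starts.

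In kidney, most counts of the UGT and SULT families came from a few genes. Levels of different genes are compared per kilobase of exon. Ugt2b38 had 520 CPM per kb and Ugt3a2 472, ahead of Gstm1 (249.5), Sult1d1 (237), Gstp1 (185) and Ugt3a1 (140). Of the summed CPM of UGT members, Ugt3a2 made up 42.3%, Ugt2b38 28.4% and Ugt3a1 10.8%. The 2 Ugt3a genes belong to a group of UGT enzymes whose human counterparts use sugars other than glucuronic acid. The GST sum was spread more evenly, with 18.4% for the mu class gene Gstm1, 18.3% for Gstz1, an isomerase of tyrosine breakdown, and 14.3% for the pi class gene Gstp1. Of the 100-base sequences of Gstp1 and Gstp2, 25.1% and 46.9% occur in other genes, mostly in each other. The split of counts between Gstp1 and Gstp2 is therefore uncertain in both tissues. Sult1d1, a sulfotransferase for catecholamines, held 85% of the SULT sum and Sult1c2 12.1%.

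The effect of HFD on the kidney was tested in each genotype by the quasi-likelihood method of edgeR, with all 20 kidney libraries fitted together, and a gene was called at an adjusted p under 0.05 over all 15943 genes tested. In WT, 11 of 35 members were called (31.4%), against 1069 genes or 6.71% of all genes. Of these, 7 were higher under HFD, where 3.03% of all genes were, and 4 were lower, against 3.68%. Without Ugt1a2, which HFD alone brought over the limit, 10 of 34 were called in WT, 6 of them higher. This count still holds Ugt1a10, whose WT SFD mean (0.445 CPM) also lay under the limit. In KO, 10 members were called (28.6%), against 6.34% of all genes, with 6 higher (3.16% of all genes) and 4 lower (3.18%). All 10 members called in KO were called in WT with the same direction, and the comparisons of WT and KO share no library, apart from the near-identical pair. The median log2 fold change over the 35 members was -0.05 in WT and -0.03 in KO, and over all genes tested it was 0.00 in each. By family, 3 UGT genes were higher and 3 lower in WT with 7 not called, 3 GST genes were higher and 1 lower with 13 not called, and 1 SULT gene was higher with 4 not called. KO differed from this by 1 UGT gene, Ugt1a2. With the study's further thresholds for diet effects, a fold change over 1.5 and a mean over 5 CPM in at least 1 group, 6 members remained in WT (2.18% of all genes) and 5 in KO (2.16%). With a1 and a12 both left out, 11 members were called in WT, 10 of them shared, with Sult1b1 lost (adjusted p = 0.0759) and Ugt2b5 gained (log2 fold change -0.66, adjusted p = 0.0149). In KO the same 10 were called without them.

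**Figure D1:**
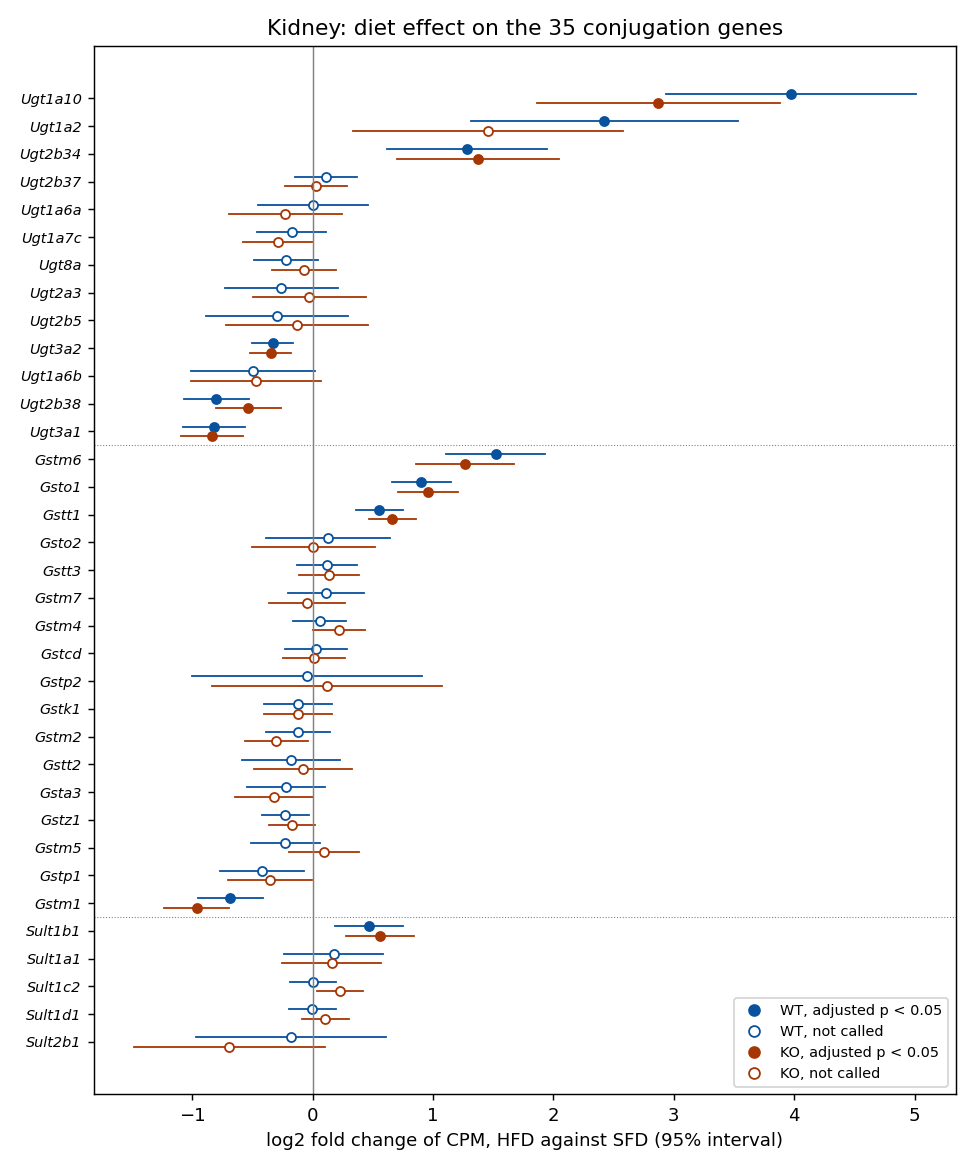
Log2 fold change of HFD against SFD in kidney for each of the 35 conjugation genes (x axis, with 95% intervals) in WT and KO, grouped by family on the y axis, with filled points for called genes. Ugt1a10 stands furthest to the right in both genotypes (3.97 and 2.87), and most of the other genes lie near 0.

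Ugt1a10 was the member with the largest change. Its level was 0.131, 0.387, 0.494, 0.579 and 0.632 CPM in the WT SFD libraries and 3.18, 6.03, 7.95, 9.27 and 9.43 CPM in WT HFD. The HFD values lay above every SFD value, and the mean rose from 0.445 ± 0.198 to 7.17 ± 2.62 CPM (SD, n = 5). In KO the values were 0.206, 0.21, 0.419, 0.718 and 1.62 CPM under SFD and 2.89, 3.64, 4.19, 4.32 and 7.8 CPM under HFD, again without overlap. The log2 fold change of Ugt1a10 was 3.97 in WT (standard error 0.49, adjusted p = 3.8e-05, 15.7-fold) and 2.87 in KO (standard error 0.48, adjusted p = 0.00072). The KO value depends on KO SFD replicate a6, which had the 1.62 CPM, and was 3.55 without it. Behind the SFD values of Ugt1a10 stood 3 to 19 counts per library in WT and 5 to 32 in KO, against 151 to 241 and 66 to 178 under HFD. Ugt1a2, the member of this cluster nearest to the shared exons, had 0, 0.129, 0.152, 0.233 and 0.455 CPM in WT SFD and 0.547, 0.679, 1.04, 1.09 and 2.03 CPM in WT HFD. Its log2 fold change in WT was 2.42 (standard error 0.52, adjusted p = 0.0065), which has to be read with its entry through HFD in mind. In KO, Ugt1a2 had 0.084 to 0.404 CPM under SFD and 0.427 to 1.01 under HFD, with a log2 fold change of 1.46 that did not pass (adjusted p = 0.118). These are low levels, of 0 to 11 counts in WT SFD and 17 to 55 in WT HFD. The other Ugt1a members were not called in either genotype. Ugt1a7c had 207 to 299 CPM in WT SFD and 175 to 275 in WT HFD, with a log2 fold change of -0.17 in WT and -0.29 in KO. Between 50.4% and 70.9% of the 100-base sequences of these 5 genes occur in other genes, mostly in the shared exons, and how the counting treated such reads is not given in the sources used here, so the split of counts among Ugt1a genes is uncertain. In the annotation Ugt1a7c ends at 88220002, past the ends of Ugt1a10 (88219004) and Ugt1a2 (88218997). Reads from that last stretch may be counted for Ugt1a7c alone.

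Ugt2b34, from a subfamily that glucuronidates steroids and drugs, was higher under HFD in both genotypes. In WT it had 12.3, 13.8, 16, 25.3 and 25.5 CPM under SFD and 39.7, 40.2, 43.3, 46.2 and 56.3 CPM under HFD. In KO the SFD values were 3.78, 15.5, 19.1, 21.9 and 23.2 CPM and the HFD values 36.8, 39.8, 43.5, 46.2 and 49 CPM. The diets did not overlap in either genotype, and the lowest value was that of KO SFD replicate a9. The log2 fold change was 1.28 in WT (standard error 0.32, adjusted p = 0.0173) and 1.37 in KO (standard error 0.32, adjusted p = 0.0117). Without WT SFD replicate a18 the WT value was 1.18 with an adjusted p of 0.0528, above the threshold of 0.05. Ugt2b38 moved the other way. It fell from 1002, 1264, 1276, 1349.7 and 1456 CPM to 575, 637, 775, 777 and 882 CPM in WT, and from 1005, 1099, 1117, 1241 and 1252 CPM to 606, 753, 775, 869.6 and 942 CPM in KO. No HFD library reached an SFD library of its genotype. The log2 fold change of Ugt2b38 was -0.80 in WT (standard error 0.13, adjusted p = 0.000451) and -0.53 in KO (standard error 0.13, adjusted p = 0.0118). Since 24.2% of its 100-base sequences occur in other genes, part of its count may be split with near copies. Ugt2b37 had 139 to 213 CPM in WT SFD and 152 to 219 in WT HFD, with log2 fold changes of 0.11 and 0.03 that were not called. Ugt2b5 was not called in the full fit (log2 fold change -0.30 in WT and -0.13 in KO). Its HFD libraries a12 (112 CPM) and a1 (102 CPM) stood above the other WT HFD (42.7 to 50.9 CPM) and KO HFD (40.6 to 64.6 CPM) libraries.

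Ugt3a1 fell from 446, 487, 497, 504 and 522 CPM to 203, 256, 285, 313 and 337 CPM in WT, and from 411, 459, 479.6, 480.4 and 497 CPM to 204, 238, 251, 304 and 306 CPM in KO. Every HFD value lay under every SFD value. Its log2 fold change was -0.82 in WT (standard error 0.12, adjusted p = 0.000218) and -0.84 in KO (standard error 0.12, adjusted p = 0.000169). The neighbouring Ugt3a2, which gave the most counts of all members, fell less. It had 1578, 1583, 1637, 1725 and 1872 CPM in WT SFD and 1199, 1250.5, 1358, 1400.3 and 1455 CPM in WT HFD, without overlap. In KO the SFD values of 1434 to 1730.3 CPM and the HFD values of 1158 to 1445 CPM overlapped by 1 library on each side. The log2 fold change of Ugt3a2 was -0.33 in WT (adjusted p = 0.0129) and -0.35 in KO (adjusted p = 0.00937), with a standard error of 0.08 in each. Ugt8a, the ceramide galactosyltransferase that begins the synthesis of sulfatide, was not called (-0.22 and -0.07).

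Because the abundant UGT genes fell, the sum over the 13 UGT members was lower under HFD. In WT, 3 UGT genes were called higher and 3 lower. Those called higher include Ugt1a2, which reached the limit only through HFD, so these counts are not an even balance. The sum was 4100 ± 288 CPM under SFD and 2986 ± 132 under HFD in WT, and 3835 ± 198 and 2910 ± 316 CPM in KO (SD, n = 5). Ranges of the UGT sum did not overlap between diets in WT (3751 to 4464 against 2893.5 to 3215 CPM) or in KO (3512.5 to 4054 against 2566 to 3416 CPM). The sum over 17 GST members was 2065 ± 389 and 1774 ± 138 CPM in WT and 2231 ± 145 and 1921 ± 306 CPM in KO, with overlap. The sum over 5 SULT members was 700 ± 68.2 and 702 ± 72.9 CPM in WT and 639 ± 42 and 697 ± 48 CPM in KO, also with overlap.

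Among the GST genes, the mu class genes Gstm1 and Gstm6 moved in opposite directions. Gstm1 had 364, 383, 434, 435 and 530.2 CPM in WT SFD and 238, 264, 269.6, 271 and 292 CPM in WT HFD. In KO it had 436, 464, 519, 554 and 588 CPM under SFD and 182, 247, 269.9, 292 and 321 CPM under HFD. The diets were fully separated in both genotypes. Gstm1 fell by 0.69 on the log2 scale in WT (standard error 0.13, adjusted p = 0.00206) and by 0.96 in KO (standard error 0.13, adjusted p = 7.1e-05). Gstm6, with 1.51 CPM per kb where Gstm1 had 249.5, rose from 0.951, 1.29, 1.41, 1.7 and 1.92 CPM to 3.12, 3.85, 4.34, 4.63 and 4.95 CPM in WT. In KO Gstm6 rose from 1.63, 1.66, 1.81, 2.08 and 2.23 CPM to 3.5, 3.51, 4.97, 5.13 and 5.53 CPM. There was no overlap, and the log2 fold change was 1.52 in WT (standard error 0.19, adjusted p = 4.7e-05) and 1.27 in KO (standard error 0.19, adjusted p = 0.000284).

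Gsto1, the omega class enzyme that reduces dehydroascorbate and acts as a thioltransferase, about doubled. It had 19.4, 20.9, 22.1, 24 and 30.1 CPM in WT SFD and 38.9, 39.2, 41.4, 49 and 49.1 CPM in WT HFD, and 20.8, 21.5, 21.8, 23.7 and 27.9 CPM in KO SFD and 37, 44.7, 46.9, 47 and 49 CPM in KO HFD. The log2 fold change of Gsto1 was 0.90 in WT (standard error 0.12, adjusted p = 5.1e-05) and 0.96 in KO (standard error 0.12, adjusted p = 2.5e-05), the smallest adjusted p of any member in KO. Its neighbour Gsto2 was not called (0.13 and 0.00). Gstt1, the theta class enzyme that acts on small halogenated compounds, rose from 108, 118, 125, 148 and 148 CPM to 170.0, 184, 188, 196 and 213 CPM in WT, and from 124, 128, 133, 141 and 144 CPM to 178, 209, 214, 219.9 and 237 CPM in KO. No values overlapped between diets. The log2 fold change of Gstt1 was 0.55 in WT (standard error 0.09, adjusted p = 0.000723) and 0.66 in KO (standard error 0.09, adjusted p = 0.000118). The other 13 GST members were not called in either genotype, with log2 fold changes from -0.42 (Gstp1 in WT) to 0.22 (Gstm4 in KO). Gstp1 had 220 to 365 CPM in WT SFD and 211 to 255 in WT HFD (adjusted p = 0.153), and Gstz1 had 316 to 471 and 309 to 347 CPM (log2 fold change -0.23, adjusted p = 0.162).

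Sult1b1, a sulfotransferase for phenols and thyroid hormones, was the only SULT member called. It had 4.37, 4.51, 5.33, 5.34 and 5.39 CPM in WT SFD and 5.73, 6.44, 6.73, 7.67 and 7.95 CPM in WT HFD. In KO it had 3.4, 4.71, 4.76, 4.87 and 4.93 CPM under SFD and 5.48, 5.95, 6.79, 7.57 and 7.65 CPM under HFD. The groups did not overlap, but the shift was small, with a log2 fold change of 0.47 in WT (standard error 0.13, adjusted p = 0.0358) and 0.56 in KO (standard error 0.13, adjusted p = 0.0121). In WT the call was lost without any of the single libraries a11 (adjusted p = 0.05005), a12 (0.0754), a14 (0.062), a15 (0.0952), a17 (0.0709) or a19 (0.0819). Sult1d1 had 526 to 696 CPM under SFD and 505 to 686 under HFD in WT, and 486 to 605 and 544 to 661 CPM in KO, with log2 fold changes of 0.00 and 0.11 and all groups overlapping. Sult1c2 was not called either (0.00 in WT and 0.23 in KO), nor were Sult1a1 (0.17 and 0.16) and Sult2b1, which acts on cholesterol and related sterols (-0.18 and -0.69).

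**Figure D2:**
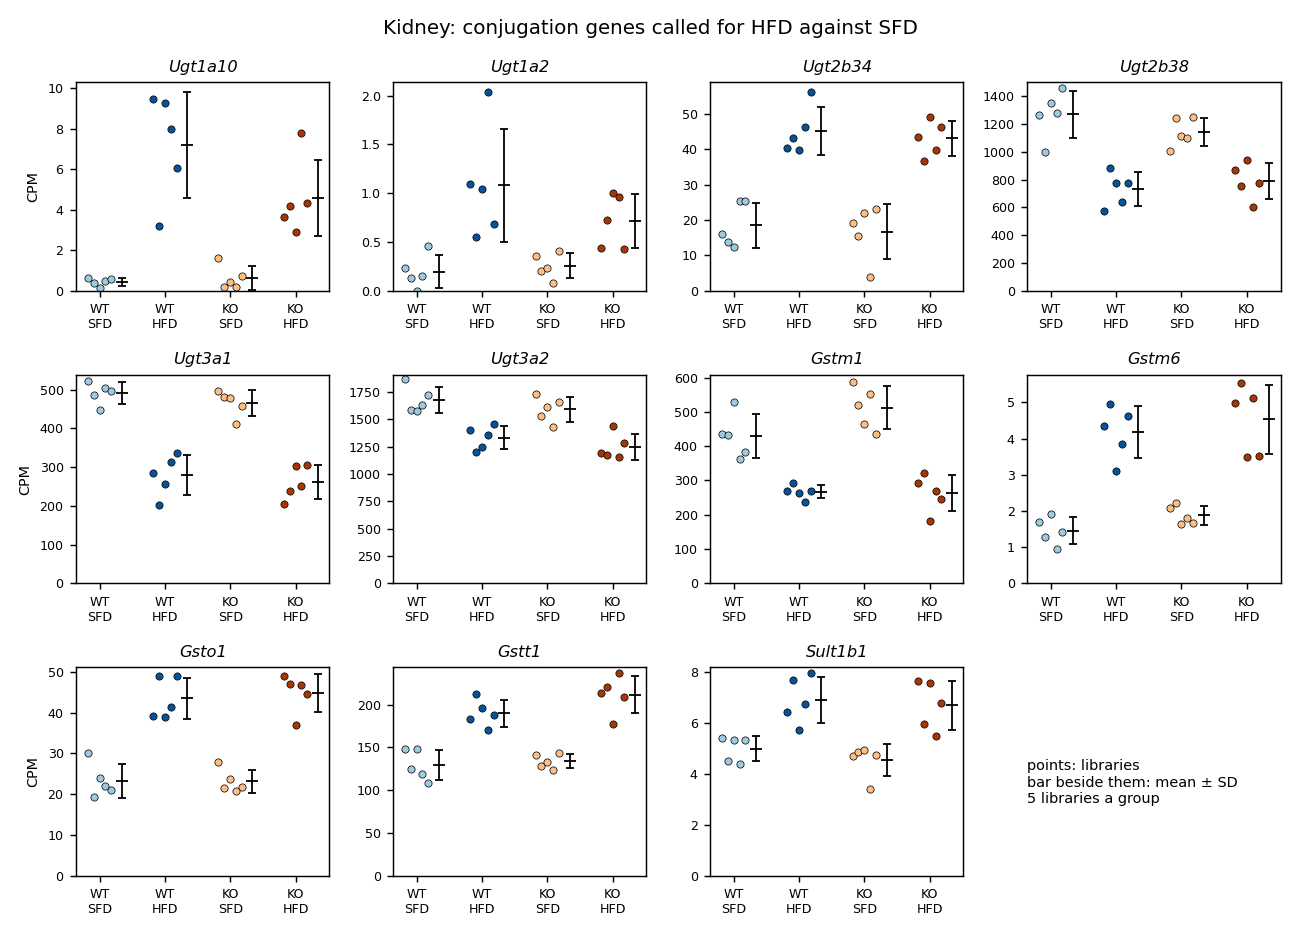
CPM in every kidney library (points) of each conjugation gene called for diet, by group, with bars for mean ± SD of 5 libraries and a y axis from 0 in each panel. HFD and SFD points are apart in both genotypes for all genes shown but Ugt3a2, whose KO groups overlap.

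Across the members, no overlap between diets was seen for 11 of 35 in WT, the 11 called, and for 10 in KO. Those in KO were 9 of the 10 called and Ugt1a2. Both counts hold Ugt1a2, which reached the limit only through HFD. Of all genes tested, 6.64% had no overlap in WT and 7.81% in KO, and 6.71% and 6.34% were called. Without a1 and a12, 12 members had no overlap in WT, Ugt2b5 among them, against 10.3% of all genes. In KO there were 10 without the pair, against 9.18% of all genes. Of the 24 members called in neither genotype, 19 had the same sign in both. The 95% interval of the log2 fold change lay within 2-fold either way for 26 of 35 members in WT and 25 in KO.

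Most called members lay in clusters with members that were not called or went the other way. On chromosome 1, 5 Ugt1a members span 165 kb (88055388 to 88220002, GRCm38), from Ugt1a10 to Ugt1a2. On chromosome 5, 679 kb (86889767 to 87569027) hold Ugt2b34, which rose, then Ugt2b5, Ugt2b37 and Ugt2a3, which were not called in the full fit. Next come Ugt2b38, which fell, Sult1b1, which rose, and Sult1d1, which was not called. Without a1 and a12, Ugt2b5 was called lower in WT. On chromosome 3, 6 mu class members lie in one stretch (107895821 to 108044894), where Gstm6 rose, Gstm1 fell and Gstm5, Gstm7, Gstm2 and Gstm4 were not called. Gstm3, which was under the limit, lies between Gstm6 and Gstm2. On chromosome 10, Gstt1 rose between the members Gstt3 and Gstt2, which were not called (75774115 to 75837424). Gstt4, also under the limit, lies between Gstt1 and Gstt2. The Ugt3a pair on chromosome 15 (9276888 to 9370955) was the only cluster of 2 or more members in which each member was called in the same direction.

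**Figure D3:**
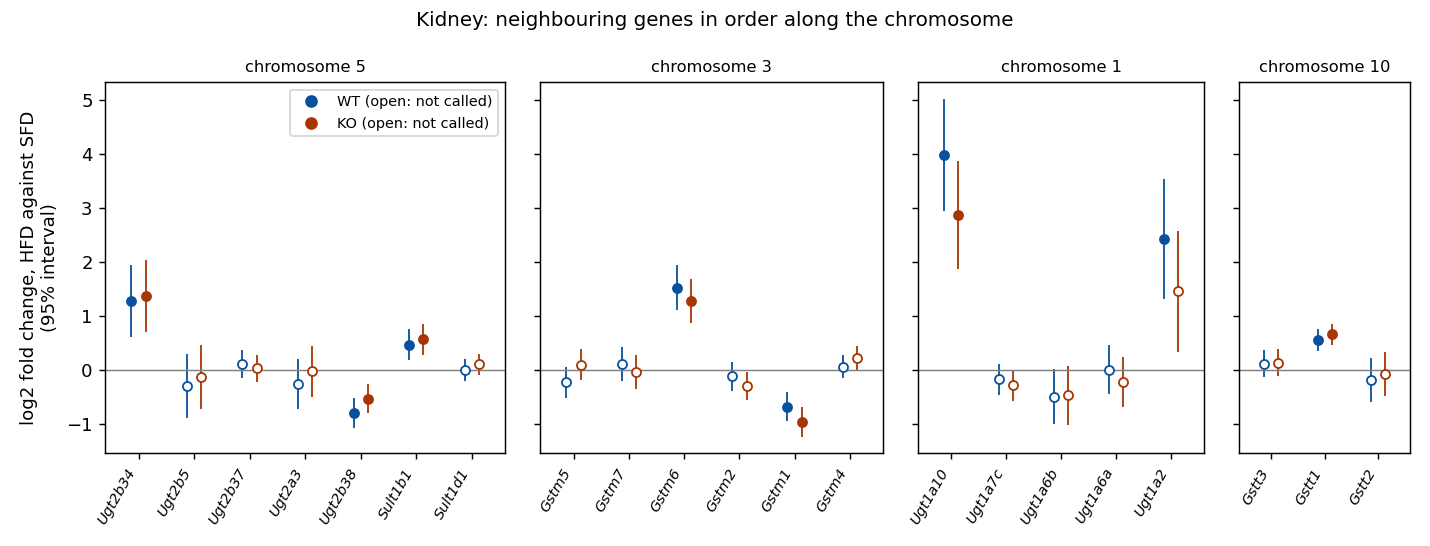
Log2 fold change of HFD against SFD in kidney (y axis, with 95% intervals) for members of the same cluster, in their order along the chromosome on the x axis. WT and KO are shown, with open points for genes not called, and genes under the limit are left out. Ugt1a10, Ugt2b34 and Gstm6 lie above 0 beside neighbours near or below 0.

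The question of the study, whether loss of endothelial EGFR changes gene expression or its response to diet, gave no called member in kidney. For KO against WT under SFD, 0 of 35 members were called by edgeR's quasi-likelihood test or DESeq2's Wald test (0% of all genes by edgeR), and 1 had an unadjusted p under 0.05, against 426 of all genes (2.67%). This was Ugt1a6b, with 1.31, 1.72, 2.03, 2.21 and 2.53 CPM in WT and 0.673, 0.991, 1.51, 1.58 and 1.62 CPM in KO (log2 fold change -0.62, standard error 0.25, unadjusted p = 0.0201, adjusted p = 0.9998). Gstm1 (0.26) and Gstm2 (0.25) had the next smallest p. Under HFD, again 0 members were called by either tool (0% by edgeR), and 1 had an unadjusted p under 0.05, against 546 of all genes (3.42%). It was again Ugt1a6b, with 1.35, 1.36, 1.37, 1.37 and 1.5 CPM in WT and 0.517, 0.832, 0.902, 0.963 and 1.29 CPM in KO (log2 fold change -0.60, unadjusted p = 0.027, adjusted p = 0.8135). Its WT and KO values overlapped under SFD and did not under HFD, where 0.169% of all genes had no overlap, and the near-identical libraries a1 and a12 lie on either side of this comparison. Without them its log2 fold change under HFD was -0.78 (adjusted p = 0.491), still without overlap, as for 3.88% of all genes. Of its 100-base sequences, 70.9% occur in other genes. Gstm5 (0.27, and 0.35 without the pair) and Ugt1a6a (-0.42, and -0.49) came next under HFD. The 95% interval of the genotype effect lay within 2-fold either way for 31 of 35 members under each diet.

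For the difference between the HFD effects of KO and WT, 0 members were called by edgeR or DESeq2 (0% of all genes by edgeR), and 0 had an unadjusted p under 0.05 (1.79% of all genes). Ugt1a10 had the largest difference, -1.10 on the log2 scale, with a 95% interval from -2.52 to 0.31, and this was -0.42 without KO SFD replicate a6 and -1.21 without a1 and a12. For Ugt1a2, called in WT alone, the difference was -0.97 (-2.57 to 0.64), so an unequal response was not shown. The intervals were narrower for Gsto1 (0.06, from -0.29 to 0.40) and Gstm1 (-0.28, from -0.66 to 0.10). The members with the smallest unadjusted p in the edgeR fit were Sult1c2, with a difference of 0.23, and Gstm5, with 0.32, each with an adjusted p of 1. The interval lay within 2-fold either way for 30 of 35 members.

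Genes that supply or use the same cofactors were described from lists chosen with earlier results of these data known. Of 5 genes for UDP-glucuronic acid, Ugdh, which makes it from UDP-glucose, fell in both genotypes (-0.33 in WT, adjusted p = 0.0323, and -0.57 in KO, adjusted p = 0.000614). Gusb, the lysosomal glucuronidase, fell in WT (-0.77) and had -0.35 in KO, which was not called. Of 9 tested glutathione genes, 4 were called lower and 0 higher in WT, with a list median of -0.34, and 2 were called lower in KO (median -0.29). Over all genes, 3.68% were lower in WT and 3.18% in KO, with a median of 0.00 in each. Gclm, the modifier subunit of the enzyme that limits glutathione synthesis, fell by 0.29 and 0.42, and Oplah, the 5-oxoprolinase, by 0.39 and 0.44. Ggt1 and Anpep, brush border enzymes that trim glutathione conjugates, fell in WT (-0.57 and -0.32) and were not called in KO (-0.36 and -0.20). Of 11 tested genes of sulfate and PAPS supply, 2 rose in each genotype (3.03% and 3.16% of all genes). These were Slc13a1, the sulfate transporter of the proximal tubule (1.02 in WT and 1.17 in KO), and Arsa, the arylsulfatase that removes sulfate from sulfatide (0.78 and 0.57). Of the PAPS synthases, Papss1 fell in WT (-0.27, with -0.20 in KO not called) and Papss2 in KO (-0.53, with -0.36 in WT not called). Bpnt1, which degrades the spent cofactor, fell in WT (-0.23, with -0.09 in KO not called). The medians of the list were -0.01 and 0.02.

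Among 7 exporters of conjugates, only Abcc4 was called, in WT (1.23, adjusted p = 0.0172), and its log2 fold change in KO was 0.63 (adjusted p = 0.252). Over all genes tested, 6.71% were called for diet in WT and 6.34% in KO. A single call in a list of 7 or 11 genes therefore says little about the list. Of 12 tested enzymes of other conjugation reactions, Mgst1, the microsomal glutathione transferase, rose by 0.70 in WT and 0.71 in KO, and Nat1, an arylamine N-acetyltransferase, rose by 1.49 and 1.34. Ephx2, the soluble epoxide hydrolase, fell by 0.62 and 0.41, and Tpmt, the thiopurine methyltransferase, by 0.28 and 0.30. Of 11 tested transcription factors of conjugation genes, Nr1i2, the pregnane X receptor, rose in both genotypes (0.68 in WT, adjusted p = 0.0186, and 0.83 in KO, adjusted p = 0.005), and the other 10 were not called. Nfe2l2, which codes for NRF2, had 0.13 and 0.03, and Ahr 0.02 and -0.13. Of 7 tested NRF2 targets outside the families, only Gclm was called, downward, and the 2 tested AHR targets were not called. Nqo1, Osgin1, Me1, G6pdx and Slc7a11 of the NRF2 list could not be tested, nor Cyp1a1, Cyp1a2, Ahrr and Nqo1 of the AHR list. The tested genes therefore say little about the activity of either factor. In aorta no gene of these lists was called in any comparison.

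Several cell and state markers moved with diet in kidney, and their part in the results above was not tested. The summed level of 7 proximal tubule markers was 30412 to 53553 CPM in WT SFD and 20608 to 28837 in WT HFD, and 34457 to 39462 and 24283 to 30704 in KO, with no marker at 0. The sum of 9 male-biased renal genes, of which Kap and Slc7a13 are also in the tubule list, was 29323 to 53618 CPM and 17879 to 26585 CPM in WT, and 33063 to 40007 and 21336 to 28681 CPM in KO. These sums were lower under HFD without overlap, in the same direction as Ugt2b38, Ugt3a1, Ugt3a2 and Gstm1. A sum follows its most abundant genes, and the mean log2 level over a list moved less for the tubule markers. Under SFD and HFD it was 10.76 and 10.56 in WT and 10.72 and 10.55 in KO. For the male-biased genes it was 10.21 and 9.39 in WT and 10.13 and 9.38 in KO. The sum of 8 female-biased genes overlapped between diets (374.5 to 505 and 439 to 618 CPM in WT, and 401 to 501 and 342 to 611 CPM in KO). The mean log2 level of the female-biased genes was higher under HFD, at 4.96 against 3.86 in WT and 4.72 against 3.99 in KO. The sum of 8 liver genes, with Apoa1 at 0, was 172 to 330 CPM in WT SFD and 474 to 958 in WT HFD, and 205 to 320 and 573 to 959 in KO, higher under HFD without overlap. The sum of 13 adipocyte genes was 2016 to 3844 CPM and 2980 to 4686 CPM in WT, with overlap, and 1860 to 3265 and 3192 to 4252 CPM in KO, also with overlap. The sum of 5 distal nephron markers overlapped between diets (3630 to 5074 and 3571 to 5516 CPM in WT, and 4294 to 5415 and 3576 to 4743 CPM in KO).

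In aorta the GST family made up nearly all conjugation transcripts. Per kilobase, Gstm1 had 374 CPM, Gstm2 177 and Gstp1 158. Gstm1 had 439, 552, 559.5, 654 and 737 CPM in WT SFD. The single SULT member, Sult1a1, a phenol sulfotransferase, had 28.6 to 40.9 CPM in WT SFD and 20.1 to 83.6 CPM in WT HFD. The UGT members Ugt8a and Ugt1a7c were near 1 CPM. The sums over all members overlapped among the groups, with 1592 ± 305 CPM in WT SFD and 1602 ± 416 CPM in WT HFD (SD, n = 5).

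No member was called in aorta in any of the 5 comparisons. The median log2 fold change of HFD over the 19 members was -0.10 in WT and -0.04 in KO, against 0.01 and -0.01 over all genes. For HFD in WT, edgeR and DESeq2 called 0 of 19 members, against 0.0132% of all 15122 genes by edgeR, and 1 member had an unadjusted p under 0.05, as did 2.61% of all genes. This was Gsta3, an alpha class enzyme that conjugates the epoxide of aflatoxin, with 4.39, 4.44, 6.41, 7.42 and 9.25 CPM in WT SFD and 2.8, 2.81, 3.27, 3.91 and 4.4 CPM in WT HFD. Under HFD the values lay lower, with overlap in the range of 1 library on each side. Its log2 fold change was -0.89 (standard error 0.26, 95% interval -1.44 to -0.34, unadjusted p = 0.00276, adjusted p = 1 by edgeR and 0.408 by DESeq2). In KO, Gsta3 had 3.25, 4.95, 6.67, 6.96 and 8.24 CPM under SFD and 2.52, 3.11, 4.04, 4.43 and 4.64 CPM under HFD, with overlap and a log2 fold change of -0.68 (standard error 0.26, unadjusted p = 0.016, adjusted p = 0.987). It was again the 1 member under an unadjusted p of 0.05, with 0 called by either tool (0% of all genes by edgeR) and 4.56% of all genes under that p. Without R-1 and R-12, Gsta3 had -0.89 (WT) and -0.64 (KO). The members with the next smallest p were Gstm6 (-0.39) and Gstz1 (-0.25) in WT, and Gstz1 (-0.26) and Gstp2 (-0.48, and -0.14 without R-1 and R-12) in KO. The summed level of 13 adipocyte genes in aorta was 807 to 1317 CPM under SFD and 682 to 1060 under HFD in WT, and 595 to 870 and 614 to 769.6 CPM in KO. With an adipocyte score as a covariate, the log2 fold change of Gsta3 was -0.73 in WT and -0.62 in KO.

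For KO against WT under SFD, 0 members of the aorta were called by either tool (0% of all genes by edgeR) and 0 had an unadjusted p under 0.05 (2.28% of all genes). The smallest p values were those of Gstm7 (log2 fold change -0.20, and -0.26 without R-1 and R-12), Gstm4 (-0.15, and -0.19) and Ugt8a (0.79, and 1.07). Under HFD, 0 were called by either tool (0%), and 1 had an unadjusted p under 0.05, where 5.85% of all genes did. This was Ugt1a7c, with 0.117, 0.233, 0.403, 0.559 and 0.66 CPM in WT and 0.536, 0.833, 1.12, 1.18 and 2.13 CPM in KO. The groups overlapped, and the log2 fold change was 1.53 (standard error 0.54, unadjusted p = 0.0105, adjusted p = 0.633 by edgeR). Gsto1 (-0.39) and Gstp1 (-0.32) came next. For the difference between the diet effects of the genotypes, 0 members were called by either tool (0% of all genes by edgeR) and 0 had an unadjusted p under 0.05 (0.840% of all genes). The smallest p values were those of Ugt1a7c (difference 1.402, and 1.35 without R-1 and R-12), Gstm7 (0.24) and Gsto1 (-0.22). The 95% interval lay within 2-fold either way for 15 to 17 of the 19 members, and the intervals of the others reached further.

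**Figure D4:**
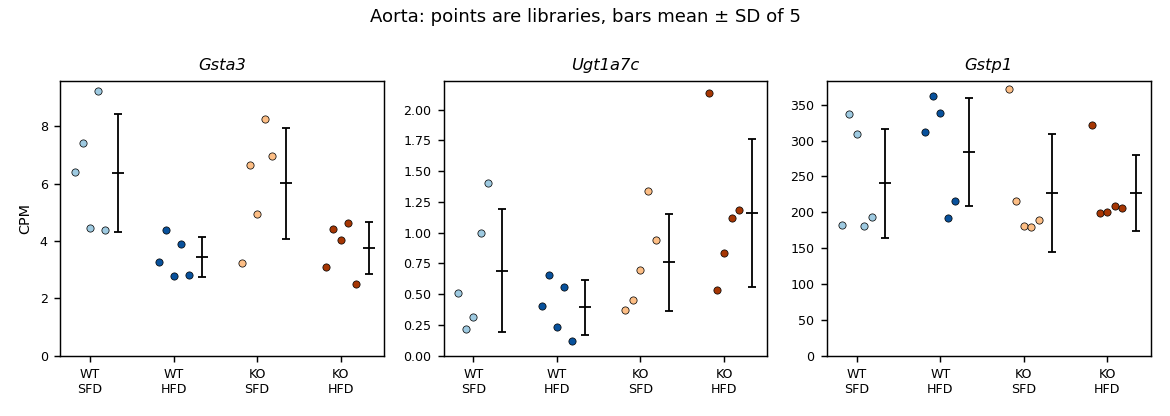
CPM in every aorta library (points) of Gsta3, Ugt1a7c and Gstp1 by group, with bars for mean ± SD of 5 libraries. The mean of Gsta3 is lower under HFD in both genotypes, with overlapping points, and 1 library each of KO SFD and KO HFD stands above the rest for Gstp1 (371.7 and 321.3 CPM).

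Levels in kidney and aorta are set side by side without a test, since the tissues were counted and normalized separately. Where a group median was under 3 counts, the ratio was taken against 3 counts per library as a lower bound. Of the 35 members, 13 had a median at least 10 times higher in kidney in each of the 4 groups, and 15 more were higher in kidney in each group. The widest gaps were those of Ugt3a2 (at least 8088 to 12436 times, over the groups), Ugt2b38 (at least 4624 to 9698 times) and Sult1d1 (at least 3697 to 4560 times). Among members detected in both tissues, Ugt1a7c was 172 to 593 times, Ugt8a 75.3 to 133 times and Gsta3 20.7 to 34 times higher in kidney. Only Gstm2 (5.85 to 10.3 times), Sult1a1 (2.58 to 2.96 times) and Gstm7 (1.82 to 2.36 times) had higher medians in aorta in each group, and Gstm1, Gstm6, Gstp1 and Gstp2 had no fixed order. The gene with the strongest tilt to aorta, Gstm2, lies in the same cluster on chromosome 3 as Gstm1 and was not called for diet in kidney (-0.12 in WT and -0.30 in KO). Tubule markers were near absent from aorta, with sums of 0.65 to 2.28 CPM and with Slc22a6 and Umod at 0.

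**Figure D5:**
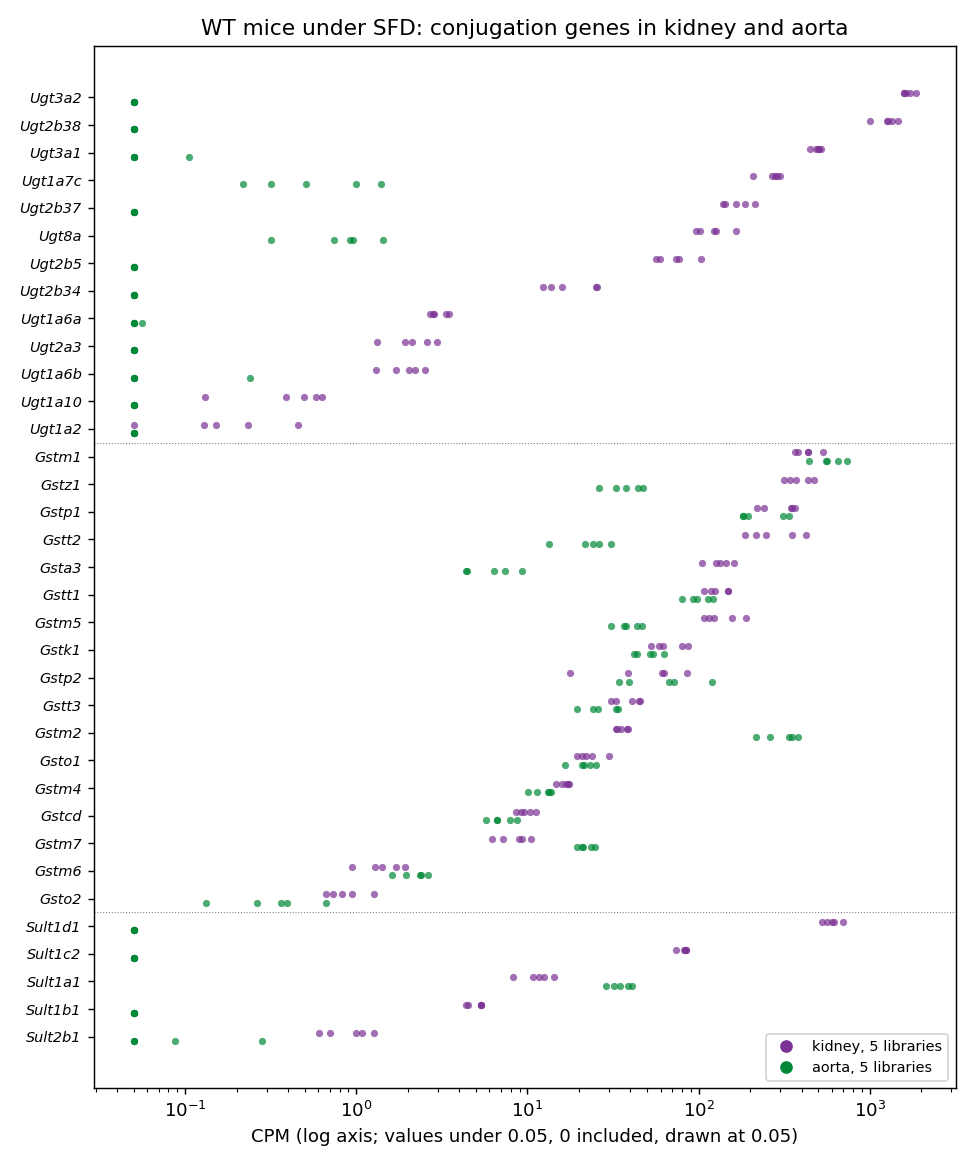
CPM of the conjugation genes in WT SFD libraries of kidney and aorta (x axis, log scale, with values under 0.05 drawn at 0.05), 1 gene per row. Ugt3a2, Ugt2b38 and Sult1d1 are far to the right in kidney, while Gstm1 and Gstp2 lie close together in the 2 tissues and Gstm2 lies to the right in aorta.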

How the data were processed

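RNA of aortas and kidneys was sequenced as polyA-selected, paired-end libraries. The authors aligned the reads to GRCm38/mm10 and deposited counts per gene, as whole numbers without normalization or filter (55382 rows for kidney, 55335 for aorta). The submitters' processing notes name HISAT2 2.1.0 and featureCounts, while the methods name TopHat2, and the strand setting and the treatment of reads with several positions are not given in the sources used here. Aortas had been freed of adjacent tissue, and the methods do not name fat.

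Samples were grouped by the genotype, diet and tissue that their labels give. Libraries of a group were taken as separate mice, after the study's n of 5 for each group, and each tissue was fitted on its own. Genes that passed filterByExpr (15943 in kidney, 15122 in aorta) were fitted by edgeR 4.0.16 (R 4.3.3, limma 3.58.1) with TMM normalization and a robust quasi-likelihood fit of the 4 groups. Benjamini-Hochberg adjustment ran over all genes tested. DESeq2 1.42.0 was an alternative. The biological coefficient of variation was 22.3% in kidney and 29% in aorta. Tables were summarised with Python 3.11.15 and pandas 2.3.3. The test was checked on simulated counts with 200 changed genes. The members and lists were chosen with earlier results of these data known. Named were all called members, the 3 with the smallest p where fewer than 3 were called, the most abundant of each family and neighbours in a cluster. All columns of per-sample values were used. Promoter windows are from RefSeq on GRCm38.p6, and positions from the gene annotation of GRCm38. Gene comparisons per kilobase used exon length, for Ugt1a genes without exons shared by position. Some genes of the lists are not reported here.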

Additional observations from a re-analysis of the deposited data

Results flagged for a closer look

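Each group of 5 libraries was searched for a library far from the other 4, over 216 pairs of group and member. Such a gap was found 10 times, where chance gives about 1 in 20, or 10.8. In kidney, 2 of them belong to WT HFD replicate a12, which is nearly identical with KO HFD replicate a1. Ugt2b5 had 112.3 CPM there (next 50.94) and Gstp2 104.1 CPM (next 43.32). The others in kidney were Gstp1 at 415.8 CPM in KO HFD replicate a2 (next 262.6), Ugt8a at 138.1 CPM in KO HFD replicate a3 (next 102), Sult1b1 at 3.403 CPM in KO SFD replicate a9 (next 4.712), Sult1c2 at 74.03 CPM in WT SFD replicate a17 (next 82.68) and Ugt1a6b at 1.5 CPM in WT HFD replicate a13 (next 1.369). In aorta, Gstp1 had 371.7 CPM in KO SFD replicate R-11 (next 215.4) and 321.3 CPM in KO HFD replicate R-16 (next 208.9). These libraries also had the highest summed level of 6 lymphoid genes in their groups (54.2 and 100.4 CPM, with Cd3e and Cd3g at 0 in all libraries). In WT, Gstp1 also reached 336.5 CPM in SFD replicate R-2 and 361.8 CPM in HFD replicate R-7. Lymphoid sums in those groups were at most 2.81 and 11.2 CPM. The part of lymphoid cells in Gstp1 was not tested, nor was that of sequence shared with Gstp2. Of the 100-base sequences, 25.1% of those of Gstp1 and 46.9% of those of Gstp2 occur in other genes. Without R-11 and R-16, the log2 fold change of Gstp1 for KO against WT under HFD in aorta was -0.47 in place of -0.32 (adjusted p = 0.529 in the edgeR fit). Sult1a1 had 83.62 CPM in WT HFD replicate R-7 in aorta (next 32.92). No difference between the diet effects of the genotypes passed the test for any member.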

How the results depend on the processing

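For 45 results, 864 values were computed under other settings. Of these, 839 kept their direction and their side of the threshold, 25 changed and 0 reversed. The members called for HFD in kidney numbered 11 in WT and 10 in KO. Under the study's thresholds on fold change and CPM they numbered 6 and 5, by construction of the stricter rule. Leaving out single libraries gave 10 to 11 in WT and 10 to 11 in KO. DESeq2's size factors and Wald test gave 11 and 10, and a fit of the compared groups alone 9 and 9. Without an expression filter, 9 and 10 were called. With a clock score as covariate, 11 and 10 were called. Leaving out replicates a8, a9 and a17, which were high in immediate-early genes, was added after seeing the data and gave 10 in WT and 10 in KO, 9 of the latter shared, with Sult1b1 lost (adjusted p = 0.0535 in WT and 0.0722 in KO by edgeR). In every other comparison the count was 0 under each alternative. Ugt2b34 lost its call in WT without the filter (adjusted p = 0.051) and in KO in the fit of the compared groups alone (0.0733), where Ugt3a2 lost its call in WT (0.0603). The cause was not tested. No paired analysis was possible because replicate numbers are unique within a tissue. Depth limits Ugt1a2, which had 0 to 11 counts in WT SFD libraries.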
